A study of Macaca fascicularis with 9 samples.

Results

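Intravenous and intrathecal delivery of an antisense oligonucleotide were compared gene by gene in the thalamus of cynomolgus monkeys. The comparison used 6 of the 9 animals of the study and 54698 of its 79994 nuclei. In 3 females a MALAT1 antisense oligonucleotide (ASO) had been given intrathecally, into the cerebrospinal fluid, as 1 dose of 4 mg. In 3 other females OTV:MALAT1 had been given intravenously as 4 biweekly doses of 30 mpk. The remaining 3 females had received 4 biweekly intravenous doses of saline, and their values are printed at many points where single animals are given. In all groups the tissue was frozen 2 weeks after the last dose. Route, carrier and number of doses changed together between the compared groups and cannot be told apart, and no group received saline intrathecally. The labels give no batch, so a batch that followed the groups could not be told apart from them either. The word routes below stands for the compared groups with all of these differences. The labels do not say whether the same oligonucleotide was used by both routes, and the doses are not on a common scale of oligonucleotide mass.

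MALAT1 is a noncoding RNA retained in the cell nucleus. It is enriched in nuclear speckles and is among the most abundant transcripts of brain nuclei. A gapmer ASO pairs with its target RNA and recruits RNase H1, which cleaves the RNA. OTV stands for oligonucleotide transport vehicle: the ASO is attached to a protein whose engineered Fc region binds the transferrin receptor (gene TFRC), which carries iron-loaded transferrin across brain capillaries. An intrathecal ASO instead spreads from the fluid around the brain and spinal cord.

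The compared animals contributed 3809 to 11992 nuclei and 22520638 to 98850459 UMIs (unique molecular identifiers, each a counted RNA molecule) each. OTV replicate 3 was shallow, with a median of 2579 UMIs per nucleus against 5158 to 7791 in the ASO animals. The study's own cell type names were used, and the fixed markers of oligodendrocytes, oligodendrocyte precursors (OPCs), myeloid nuclei and astrocytes were each most abundant in the type they name. Of 5 endothelial markers, VWF stood highest in the myeloid nuclei, at 143 to 680 CPM (UMI counts scaled to the library total) in OTV animals. It was at 709 to 844 CPM in ASO animals and 439 to 674 CPM in saline animals. In the compared animals PECAM1 was at 25.4 to 52.8 CPM and FLT1 at 3.98 to 26.3 CPM. CDH5 and MFSD2A did not exceed 2.10 CPM. Among the compared animals ASO replicate 3 stood apart, with 6 striatal neuron markers at a sum of 98.7 CPM in its oligodendrocyte nuclei. They summed to 2.84 and 3.83 CPM in the other ASO animals and 4.99 to 6.99 CPM in the OTV animals. Saline animals held 30.9, 2.61 and 346 CPM of them, so saline replicate 3 was higher still. In ASO replicate 3 the myeloid nuclei held 361 CPM of T cell markers, against 47.8 to 117 CPM in the other compared animals. Saline myeloid nuclei held 65.1 to 122 CPM. In astrocytes 16 telencephalic genes summed to 335, 207 and 1062 CPM in ASO animals and to 153, 164 and 132 CPM in OTV animals. In myeloid nuclei they summed to 290, 260 and 201 CPM against 167, 129 and 78.3 CPM. Saline animals held 169 to 1066 CPM in astrocytes and 140 to 290 CPM in myeloid nuclei. In oligodendrocytes and OPCs the groups overlapped, and no tested telencephalic gene was called in any type. In myeloid nuclei only 2 of them could be tested. Of 23 diencephalic genes, 3 of 17 tested were called higher after OTV in oligodendrocytes and 1 of 11 in OPCs (all features: 11.2% and 12.7%). In myeloid nuclei 1 of 7 was higher and in astrocytes 1 of 15 (all features: 9.42% and 9.51%). No diencephalic gene was called lower in any type. In OTV replicate 1, cluster 8 held 22.9% of oligodendrocytes, against 0.0178% to 2.57% elsewhere among the 6 animals. In the saline animals it held 206 of 8615, 290 of 8816 and 41 of 1074 oligodendrocytes. No pair of animals shared more than 48 cell barcodes, and the shared barcodes made up at most 0.474% of the nuclei of the smaller library of any pair.

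The targeted RNA came first. MALAT1 made up 3.95%, 3.47% and 3.03% of the UMIs of oligodendrocyte nuclei in the OTV animals and 4.73%, 4.22% and 5.72% in the ASO animals. The groups did not overlap, with 3.48% ± 0.46 (SD, n = 3) after OTV and 4.89% ± 0.76 (SD, n = 3) after the ASO, and saline animals lay above both at 6.42% to 6.87%. The exact permutation test gave p = 0.1 (two-sided), the smallest that 3 against 3 animals allow, and 0.133 adjusted over the 4 cell types tested. In OPCs the OTV animals also lay below the ASO animals without overlap, 2.94% ± 0.17 (SD, n = 3) against 3.70% ± 0.21 (SD, n = 3), also at the exact p of 0.1. Saline OPCs held 4.61%, 4.43% and 3.22%, so saline replicate 3 lay below every ASO animal. In astrocytes the OTV animals held 4.61%, 3.74% and 3.97% and the ASO animals 4.95%, 6.04% and 6.28%, again separate and again at the exact p of 0.1, while saline astrocytes, at 4.66% to 7.46%, overlapped the ASO animals.

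Myeloid nuclei did not follow that order. Their MALAT1 share was 1.85%, 1.82% and 1.84% in the OTV animals and 1.16%, 2.53% and 3.05% in the ASO animals. So the spread lay in the ASO group and the groups overlapped (exact permutation p = 0.4). Saline myeloid nuclei held 3.47%, 3.11% and 3.28%, above every compared animal. Without ASO replicate 1 the edgeR difference in myeloid nuclei became a call, at a log2 fold change of -0.63 (adjusted p = 0.021). Neurons numbered 18 and 17 in ASO replicates 1 and 2, and were left out of the edgeR fits and of the adjusted MALAT1 tests. They held 2.20% to 2.90% of UMIs as MALAT1 after OTV, 3.38% to 7.61% after the ASO and 4.81% to 6.225% after saline. The exact permutation test, OTV against ASO, gave p = 0.1 for these shares and 0.2 for the mean over nuclei. Counting error alone was small, with Wilson 95% half-widths of at most 0.035 percentage points in the 4 tested types. The plot of MALAT1 shares shows the 3 groups side by side.

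**Figure D1:**
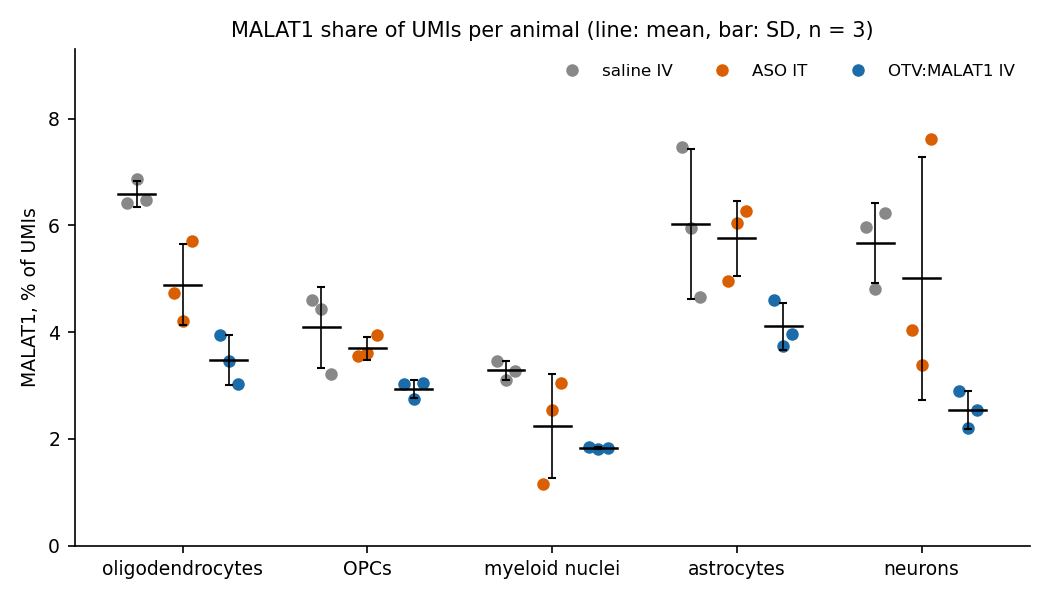
MALAT1 as a percentage of all UMIs in each animal (points), by cell type, for saline, ASO and OTV:MALAT1 animals; lines are group means and bars SD (n = 3). OTV animals lie below all ASO animals in oligodendrocytes, OPCs, astrocytes and neurons, while in myeloid nuclei ASO replicate 1, at 1.16%, lies below the OTV animals.

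In the model fitted across all features (edgeR quasi-likelihood on counts summed per animal, all 9 animals), MALAT1 was not called between the routes at an adjusted p under 0.05 in any of the 4 types. Its log2 fold changes, OTV over ASO, were -0.40 ± 0.14 (SE) in oligodendrocytes (adjusted p = 0.0618), -0.39 ± 0.24 in astrocytes, -0.31 ± 0.28 in myeloid nuclei and -0.23 ± 0.14 in OPCs. In oligodendrocytes it became a call without OTV replicate 1 (-0.52, adjusted p = 0.0323) and with no filter on low counts (-0.42, adjusted p = 0.0489). The receptor gene TFRC was close to the threshold in oligodendrocytes, at 16.6, 17.3 and 18.5 normalised CPM after OTV and 13.6, 14.03 and 12.2 after the ASO, with saline at 12.97 to 14.1 (log2 fold change 0.40 ± 0.13 SE, adjusted p = 0.0505). It passed with DESeq2 size factors (edgeR adjusted p = 0.044), by the DESeq2 Wald test (adjusted p = 0.0122) and after thinning (edgeR adjusted p = 0.0472). It did not pass in the other 9 of 12 alternatives, and was weakest without ASO replicate 3 (0.33, edgeR adjusted p = 0.165). In the other 3 types TFRC differed by -0.15 to 0.28 on the log2 scale and was not called.

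Many genes beyond the target differed between the routes. In oligodendrocytes 5269 of 20036 features tested (26.3%) were called, in OPCs 4044 of 14894 (27.2%), in myeloid nuclei 2597 of 12667 (20.5%) and in astrocytes 2990 of 13608 (22.0%). Lower calls outnumbered higher calls in every type. In oligodendrocytes 2423 features were more than 2-fold lower and 1121 more than 2-fold higher after OTV. In myeloid nuclei the corresponding numbers were closer, 847 and 756. Of all features, 11.2% were higher and 15.1% lower in oligodendrocytes, and 12.7% and 14.4% in OPCs. The shares were 9.51% and 12.5% for astrocytes and 9.42% and 11.1% for myeloid nuclei. The same animals and the same droplets supply all 4 types, so the types are not independent of each other.

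**Figure D2:**
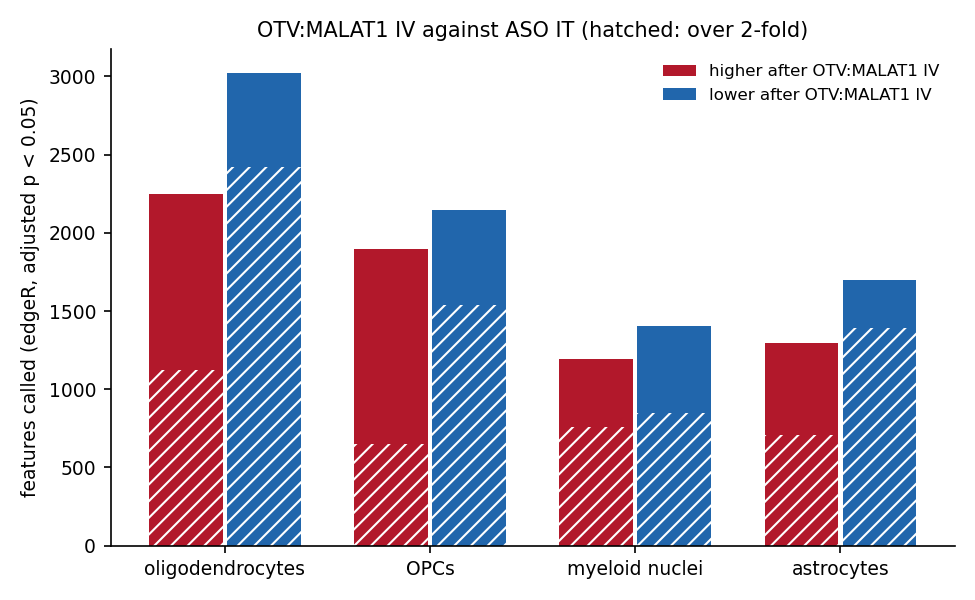
Number of features called higher (red) or lower (blue) after OTV:MALAT1 IV than after ASO IT in each cell type, by edgeR at an adjusted p under 0.05; the hatched part of a bar is past 2-fold. Lower calls exceed higher calls in all 4 types, and the gap past 2-fold is widest in oligodendrocytes (2423 against 1121).

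A share of these differences ran through all 4 types. Of 11324 features tested in every type, 2302 (20.3%) were called in exactly 1. Called higher in at least 3 types were 833 (7.36%), and lower 915 (8.08%). Of the same features, 365 (3.22%) were called higher in all 4 and 487 (4.3%) lower in all 4, while 6040 (53.3%) were called in none. By the rule for named genes, the genes leading the higher set were mitochondrially encoded, and they are described further on. The nuclear genes that followed were named after their values were seen. KAT2A, a histone acetyltransferase, stood at 93.2, 74.1 and 87.1 normalised CPM in oligodendrocytes of the OTV animals and at 18.97, 25.9 and 22.6 in the ASO animals. The groups were far apart (log2 fold change 1.92 ± 0.14 SE, adjusted p = 0.000175), and saline animals lay near the ASO animals at 26.4 to 29.1. In the other types KAT2A differed by 1.43 (myeloid nuclei), 1.72 (OPCs) and 1.77 (astrocytes).

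Other genes higher in all 4 types were named after their values were seen as well. RHOT2, a GTPase of the outer mitochondrial membrane, was at 40.4, 35.7 and 45.7 normalised CPM in oligodendrocytes after OTV and at 12.9, 13.7 and 15.0 after the ASO, with saline at 13.7 to 16.3. Its log2 fold changes ran from 1.55 to 1.95 over the types. TMEM259, a membrane protein of endoplasmic reticulum quality control, ranged from 1.36 to 1.58, and the ubiquitin ligase gene MIB2 from 1.69 to 2.07. PKIB, an inhibitor of protein kinase A, differed by 1.66 to 2.16. In myeloid nuclei PKIB was at 143, 142 and 121 normalised CPM after OTV, at 40.3, 30.0 and 20.5 after the ASO and at 102 to 105 after saline, so there the saline animals lay nearer the OTV animals.

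The genes leading the set lower in all 4 types were FGL1, SLC9A2, IRGC and FILIP1L. FGL1 encodes a secreted fibrinogen-like protein, and in oligodendrocytes it stood at 25.6, 26.8 and 15.3 normalised CPM in OTV animals against 172, 113 and 193 in ASO animals. Its fold change was -2.82 ± 0.25 SE on the log2 scale (adjusted p = 0.000208), and saline animals, at 121 to 142, lay within the ASO range. In the other types FGL1 differed by -2.98 (OPCs), -2.71 (myeloid nuclei) and -3.27 (astrocytes). SLC9A2, a sodium-proton exchanger, was lower by -2.23 to -2.71 over the types, IRGC, of the immunity-related GTPase family, by -2.14 to -3.19 and FILIP1L by -2.12 to -3.09. All 16 of these gene and type pairs kept their call under every alternative run.

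SOD1, ACADS and IL6, also lower in all 4 types and chosen after their values were seen, have well-known roles. SOD1 encodes the cytosolic superoxide dismutase and was at 62.9, 44.0 and 35.8 normalised CPM in oligodendrocytes after OTV and at 115, 149 and 125 after the ASO (log2 fold change -1.44 ± 0.21 SE, adjusted p = 0.00136), with saline at 77.2 to 102.5. ACADS, which oxidises short-chain fatty acids in mitochondria, differed by -2.03 to -2.85 over the types. IL6, an inflammatory cytokine gene, was at 8.32, 18.96 and 9.22 in astrocytes after OTV and at 154, 77.7 and 211 after the ASO. Saline astrocytes held 111 to 133, inside the ASO range, and the log2 fold change of IL6 was -3.71 ± 0.42 SE (adjusted p = 0.000839).

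**Figure D3:**
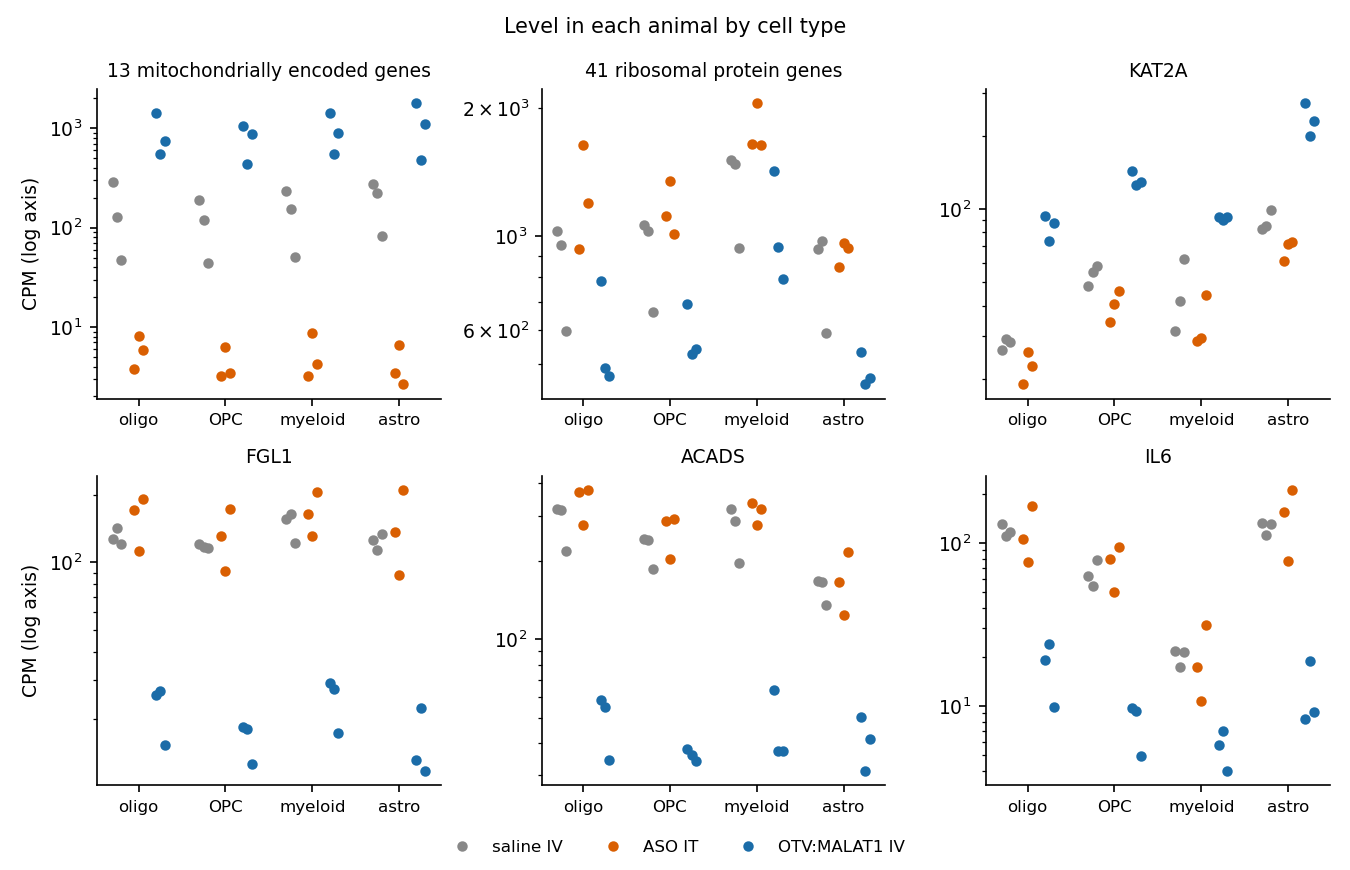
Levels in every animal by cell type, on log axes: summed CPM of the 13 mitochondrially encoded and 41 ribosomal protein genes, and normalised CPM of KAT2A, FGL1, ACADS and IL6. For KAT2A, FGL1, ACADS and IL6 the OTV animals stand clear of the ASO animals in all 4 types and the saline animals lie near the ASO animals; for the mitochondrially encoded genes saline (44.0 to 288 CPM) lies between the ASO animals (2.64 to 8.72 CPM) and the OTV animals (435 to 1798 CPM).

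The 13 protein-coding genes of the mitochondrial genome separated the routes by the widest median difference of the 28 gene lists compiled. They encode core subunits of respiratory complexes and are transcribed inside mitochondria, outside the nucleus. In oligodendrocytes they summed to 1426, 548 and 749 CPM in OTV animals, to 3.80, 8.03 and 5.90 CPM in ASO animals and to 288, 127 and 47.3 CPM in saline animals. All 13 tested members were called higher there (11.2% of all features were), and all 12 tested members in each of the other types, with medians of 7.66 to 8.55 on the log2 scale. Over the nuclei of the 4 tested types the ASO animals held 1344 such UMIs in total and the OTV animals 119665, a 189-fold ratio of group CPM. In these nuclei ND3 had 0 UMIs in all 3 ASO animals and 2613 in the OTV animals. It was at least 1850-fold higher against a floor of 3 counts over the ASO group. ND4L was at least 918-fold higher on the same floor. The ratio was uneven between the genes. COX1, with 271 UMIs in the ASO animals, was 42.2-fold higher and ATP6, with 290, was 78.3-fold higher. ND4 and CYTB had 1 and 3 UMIs in the ASO animals. The cause of this unevenness was not tested.

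Nuclear genes for the same respiratory chain were called lower more often than higher in oligodendrocytes and OPCs. Of 41 tested in oligodendrocytes, 11 were lower and 1 higher after OTV, and in OPCs 12 were lower and none higher (all features: 15.1% and 14.4% called lower). In myeloid nuclei 6 of 41 were lower and 1 higher, and in astrocytes 4 and 3 (all features: 11.1% and 12.5% called lower). The astrocyte balance turned with single animals, to 2 lower and 4 higher without ASO replicate 2 and to 3 lower and 6 higher without OTV replicate 2. Without OTV replicate 3 the number called lower was 1 in astrocytes and 3 in myeloid nuclei. COX7A2, a complex IV subunit, was lower in all 4 types (-0.98 to -1.62), and NDUFB9, of complex I, in all but astrocytes (-1.44 to -2.03). NDUFS1, a complex I core subunit, was higher in oligodendrocytes (0.33) and astrocytes (0.80). When 1 animal was left out, the number called lower in oligodendrocytes ranged from 4 (without OTV replicate 2 or OTV replicate 3) to 18 (without OTV replicate 1), and was 6 without ASO replicate 2. In OPCs it ranged from 7 (without ASO replicate 2, OTV replicate 2 or OTV replicate 3) to 18.

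Ribosomal protein genes that were called were lower after OTV, with 1 exception. In oligodendrocytes 18 of 38 tested were called lower and none higher (15.1% of all features were lower), with a median log2 fold change of -1.09 against -0.01 over all features. The numbers called lower were 18 of 37 in OPCs, 14 of 37 in astrocytes and 8 of 37 in myeloid nuclei (all features: 14.4%, 12.5% and 11.1%). RPL4 was the 1 member called higher, in myeloid nuclei (0.76). RPS6 of the small subunit stood at 41.8, 36.8 and 30.0 normalised CPM in oligodendrocytes after OTV against 124, 129 and 144 after the ASO and 91.2 to 114 after saline (log2 fold change -1.87 ± 0.14 SE, adjusted p = 0.000175). RPLP0, of the large subunit's stalk, differed by -1.82 there. The count rested on single libraries: in oligodendrocytes it was 6 without ASO replicate 2, 10 without ASO replicate 3, 5 without OTV replicate 2 and 5 without OTV replicate 3. The median there stayed between -0.77 and -1.35 when any 1 of the 6 animals was left out. With 1 animal left out the number called lower ranged from 9 to 21 in OPCs, from 3 to 15 in myeloid nuclei and from 6 to 9 in astrocytes.

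Genes of nuclear speckles and splicing, the compartment where MALAT1 is found, were more often higher. In oligodendrocytes 12 of 28 tested were higher and 1 lower, in OPCs 11 and 2, in myeloid nuclei 6 and 1 and in astrocytes 8 and 1, while of all features 11.2%, 12.7%, 9.42% and 9.51% were called higher in these types. SON and SRRM2, large scaffold proteins of speckles, were higher in all 4 types, SON by 0.56 to 1.01 and SRRM2 by 0.76 to 1.28 on the log2 scale. U2AF2 and SF3B1, which recognise the 3' end of introns, were also higher in all 4 (0.86 to 0.96 and 0.51 to 0.83). SRSF2, a serine and arginine rich splicing factor, was lower in every type but oligodendrocytes (-0.77 to -0.98), and SRSF10 in oligodendrocytes and OPCs (-0.49 and -0.46). With 1 animal left out the number called higher ranged from 9 to 14 in oligodendrocytes, 7 to 13 in OPCs, 3 to 9 in myeloid nuclei and 4 to 9 in astrocytes; the lowest counts in OPCs, myeloid nuclei and astrocytes came without ASO replicate 1. None of the 28 was called in the edgeR test for dependence on cell type.

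The machinery that an ASO meets inside cells was called in both directions. Of 14 tested genes of RNA decay and RNase H, 3 were higher and 2 lower in oligodendrocytes, where 11.2% of all features were higher and 15.1% lower: DIS3, the exosome nuclease (0.64), AGO2, of RNA interference (0.46), and SND1 (0.35) were higher, and RNASEH2C, a subunit of RNase H2 (-1.35), and EXOSC3 (-0.52) were lower. Among 20 tested genes of oligonucleotide uptake and endosomal traffic, 5 were higher in oligodendrocytes (all features: 11.2%), among them the scavenger receptor genes MSR1 (2.22), STAB1 (0.92) and SCARB1 (0.83), and the chaperone gene HSPA8 was lower (-1.55). In OPCs 6 of 17 uptake genes were higher and 2 lower, and 4 and 2 of 14 genes of RNA decay (all features: 12.7% and 14.4%). LRP1, a large endocytic receptor, was higher in OPCs (0.39), myeloid nuclei (0.79) and astrocytes (1.07). MSR1 is known from macrophages, and the 7 myeloid markers in these nuclei summed to 25.4 to 35.99 CPM in OTV animals and 21.5 to 32.0 CPM in ASO animals. Of these 7 markers 2 were called higher after OTV and none lower; their part in it was not tested.

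Lysosome genes gave 2 lower and none higher of 26 in oligodendrocytes and 3 and 1 of 26 in astrocytes (all features: 15.1% and 12.5% lower). The counts were 5 and 1 of 25 in myeloid nuclei and 5 and 1 of 24 in OPCs (all features: 11.1% and 14.4% lower). ATP6AP2, an accessory subunit of the proton pump, was lower in all 4 types by -1.06 to -1.61. In myeloid nuclei it stood at 68.5, 68.7 and 46.4 normalised CPM after OTV and at 155, 153 and 170 after the ASO, with saline at 124 to 171. Iron and transferrin genes gave 2 higher and 4 lower of 18 in oligodendrocytes, 1 and 3 of 18 in astrocytes and 1 and 5 of 16 in myeloid nuclei (all features: 15.1%, 12.5% and 11.1% lower). Of all features 11.2%, 9.51% and 9.42% were higher in these 3 types. In OPCs 3 of 17 were higher and 2 lower, near the 12.7% and 14.4% of all features. HEPH, a ferroxidase, was higher in all 4 types (0.89 to 2.73), while HMOX1, the haem-degrading enzyme, was lower in 3 types, most in astrocytes (-2.03). HFE, which binds the transferrin receptor, was lower in oligodendrocytes (-1.18) and myeloid nuclei (-1.98).

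Protein quality-control genes also moved in both directions within a list. Of 16 heat shock and chaperone genes 1 was higher and 3 lower in oligodendrocytes, 25% called against 26.3% of all features. The share was 18.75% in OPCs, myeloid nuclei and astrocytes alike, below the 27.2%, 20.5% and 22.0% of all features. HSF1, the heat shock transcription factor, was higher in all 4 types (0.74 to 1.24), while the co-chaperone gene DNAJA1 was lower in all 4 (-1.03 to -1.26). Proteasome genes gave 2 higher and 3 lower of 28 in oligodendrocytes, 17.9% called against 26.3% of all features. PSMD2 and PSMC5, of the regulatory particle, were higher in all 4 types (0.63 to 1.00 and 0.78 to 1.54), and PSMB3 and PSMB6, of the core particle, lower in all 4 (-1.08 to -1.28 and -1.31 to -1.59). Of the cholesterol synthesis genes, 1 of 19 was called in oligodendrocytes (NSDHL, 0.66) and none in the other types, below the share of all features called.

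**Figure D4:**
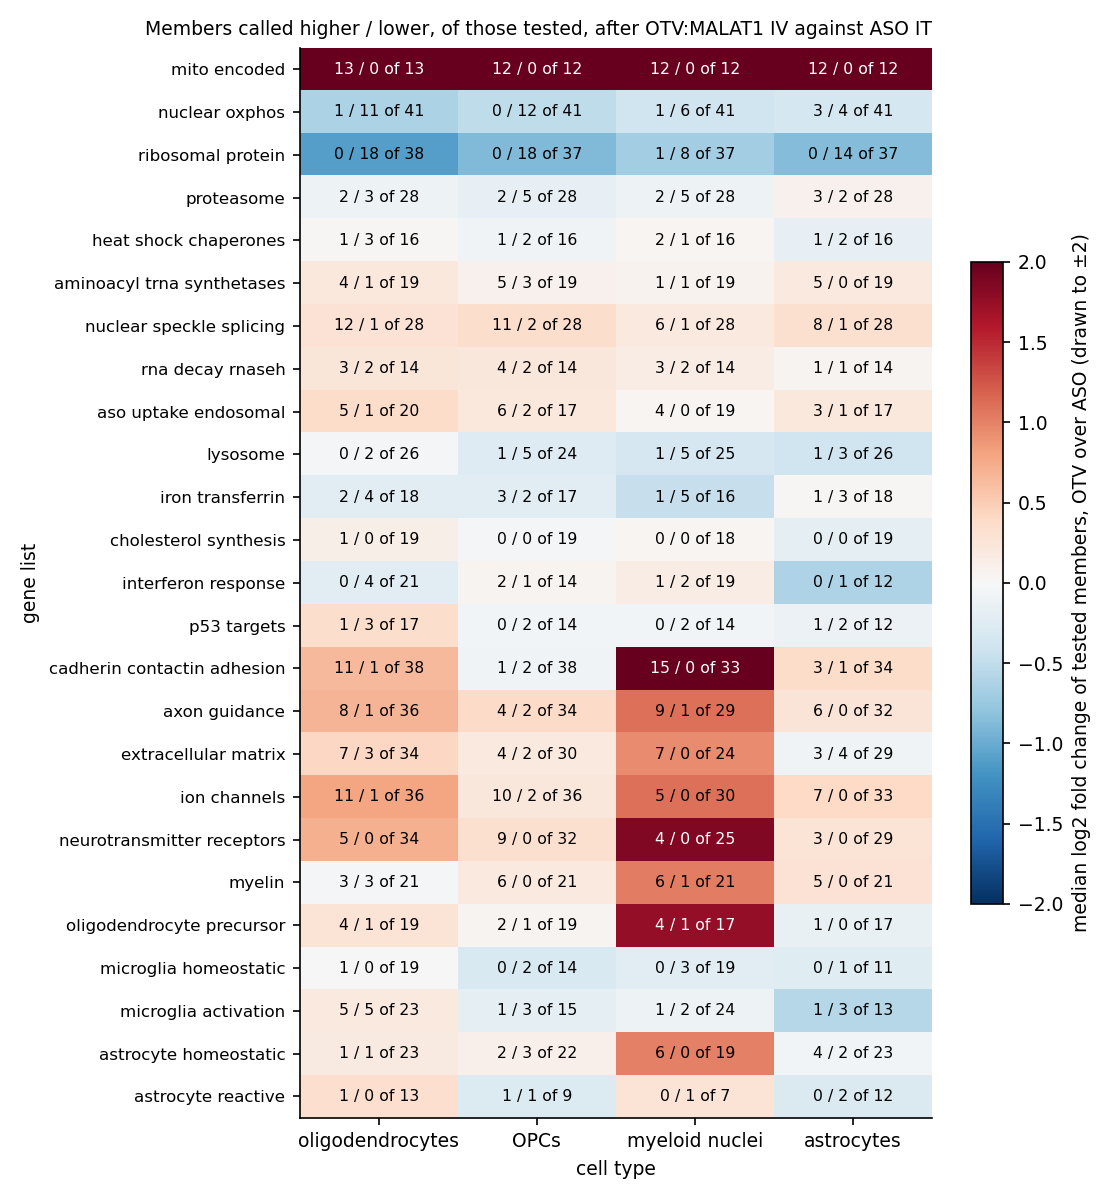
Gene lists (rows) by cell type (columns): the text gives members called higher / lower of those tested, and the colour the median log2 fold change of tested members, OTV over ASO, drawn to ±2 (the mitochondrially encoded list, at 7.66 to 8.55, and the adhesion list in myeloid nuclei, at 2.09, are past the scale). The medians of ribosomal protein and nuclear respiratory chain genes are below 0 in all 4 types and those of speckle genes above 0. The medians of adhesion, guidance and channel genes are highest in myeloid nuclei. There the medians of neurotransmitter receptor, precursor, myelin, astrocyte homeostatic and extracellular matrix genes, 0.95 to 1.85, are also the highest of the 4 types. The median of the adhesion genes in OPCs is -0.07.

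Of 21 tested interferon response genes in oligodendrocytes, 4 were lower after OTV and none higher, and in astrocytes 1 of 12 was lower. These counts lie near the shares of all features called lower, 15.1% and 12.5%. Among the lower genes in oligodendrocytes were IFIT3 (-0.84) and IFI6 (-0.90), both induced by interferon. In OPCs 2 of 14 were higher, OAS1 (1.87) and STAT2 (0.64), and 1 was lower (all features: 12.7% and 14.4%). In myeloid nuclei 1 of 19 was higher, the sensor gene TLR3 (1.34), and 2 were lower (all features: 9.42% and 11.1%).

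The p53 target TP53I3 was lower in all 4 types (-1.12 to -2.82). In oligodendrocytes the cell cycle regulator CCNG1 (-1.09) was lower and the stress gene GADD45A (1.48) higher. The other genes of that list were not called there, except TP53INP1 (-0.85). So 1 of 17 was higher and 3 lower, 23.5% called against 26.3% of all features. The share called was 14.3% in OPCs and in myeloid nuclei and 25% in astrocytes, against 27.2%, 20.5% and 22.0% of all features.

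Microglial state genes held few calls in the myeloid nuclei. Of 19 tested homeostatic genes 3 were lower and none higher (all features: 11.1% lower and 9.42% higher). In either direction the share called was 15.8% against 20.5% of all features. The 7 myeloid markers summed to 4389 to 5329 CPM in OTV animals and 5783 to 6572 CPM in ASO animals. Of these markers 2 were called lower and none higher, and saline animals held 5779 to 6582 CPM. GPR34, a microglial lipid receptor, was at 278, 177 and 158 normalised CPM after OTV and at 639, 527 and 504 after the ASO (log2 fold change -1.43 ± 0.22 SE, adjusted p = 0.00225), with saline at 520 to 712. C1QC, a complement subunit, differed by -1.48 and the purinergic receptor gene P2RY13 by -1.85, while P2RY12, CX3CR1 and CSF1R were not called (-0.90, -0.77 and 0.02). Of 24 activation genes 1 was higher and 2 lower (all features: 9.42% and 11.1%): CLEC7A, a glucan receptor, was higher (2.06), and CYBB, an NADPH oxidase subunit (-0.93), and the lysosomal CD68 (-1.20) were lower. The mix of myeloid nuclei differed too: cluster 7 held 79.7%, 64.6% and 57.1% of them in OTV animals and 38.0%, 43.0% and 37.5% in ASO animals. In saline animals it held 60.1%, 54.0% and 76.3%, which overlapped the OTV animals and lay above the ASO animals. The call of CLEC7A and of CD68 was lost within that cluster.

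Astrocytes showed calls in both directions among their own markers. ALDH1L1, a folate enzyme used as an astrocyte marker, stood at 303, 246 and 350 normalised CPM after OTV and at 106, 121 and 110 after the ASO, with saline at 126 to 151 (log2 fold change 1.42 ± 0.17 SE, adjusted p = 0.000807). FGFR3, a growth factor receptor, was also higher (0.92). APOE, the main lipid carrier of the brain, was at 138, 94.8 and 61.2 after OTV against 847, 816 and 514 after the ASO and 523 to 842 after saline (log2 fold change -2.89 ± 0.34 SE, adjusted p = 0.000836). AQP4, the water channel of astrocyte endfeet, differed by -1.60, and GFAP, the filament raised in reactive astrocytes, was not called (-0.01 ± 1.02 SE). Of 12 reactive genes TIMP1 (-2.15) and TNC (-1.82) were lower and none higher (all features: 12.5% lower). ASO replicate 3 had the highest summed astrocyte markers of the 6 animals, 25250 CPM against 6551 to 9440 CPM, with saline at 7840 to 26720 CPM. Without ASO replicate 3 the log2 fold changes of APOE and ALDH1L1 kept their calls.

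In oligodendrocytes 3 myelin genes of 21 were higher and 3 lower, near the 11.2% and 15.1% of all features. MYRF, the transcription factor of myelination, was at 474, 445 and 437 normalised CPM after OTV and at 265, 308 and 315 after the ASO, with saline at 244 to 319 (log2 fold change 0.61 ± 0.12 SE, adjusted p = 0.00545). HAPLN2, a matrix linker at nodes of Ranvier (1.19), and CNDP1 (1.08) were higher as well. CLDN11, of the myelin tight junctions (-1.04), OPALIN, a myelin membrane protein (-0.96), and MOG (-0.56) were lower, and MAG was not called (-0.12). Of 19 tested precursor genes in OPCs 2 were higher and 1 lower, 15.8% called against 27.2% of all features. CSPG4, the NG2 proteoglycan (1.05), and GPR17, of precursors committed to differentiate (1.13), were higher there and PTPRZ1, a receptor phosphatase, lower (-0.60). The 6 OPC markers there summed to 11410 to 13630 CPM in OTV animals and 14100 to 16020 CPM in ASO animals. Saline OPCs held 13520 to 16080 CPM of them. The call of GPR17 was lost under 9 of 12 alternatives.

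Genes of neural adhesion, guidance and signalling gave counts that varied between the types. In myeloid nuclei, of 33 tested cadherin, contactin and related adhesion genes, 15 were higher after OTV and none lower (all features: 9.42% higher). Their median log2 fold change was 2.09 against -0.02 over all features. With no filter on low counts 6 of 38 were called higher there, and with only the 6 compared animals 23 of 32. With 1 animal left out the number ranged from 3 to 10. The count was 11 higher and 1 lower of 38 in oligodendrocytes, 1 and 2 of 38 in OPCs and 3 and 1 of 34 in astrocytes, where 11.2%, 12.7% and 9.51% of all features were higher. In OPCs the median was -0.07. The number called higher in oligodendrocytes was 6 without ASO replicate 2 or OTV replicate 2, and in astrocytes 1 without ASO replicate 2 or OTV replicate 3. In the test for dependence on cell type 18 of the 38 were called, against 10.4% of all features.

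Of 29 guidance genes tested in myeloid nuclei 9 were higher and 1 lower (4 without ASO replicate 1, 5 without ASO replicate 2 and 6 to 8 without any other), where 9.42% of all features were higher. Those higher included the netrin receptor gene UNC5C (3.54), EPHA4 (3.80), ROBO1 (2.63) and SEMA6D (3.14). In the other types 8 of 36 guidance genes were higher in oligodendrocytes, 6 of 32 in astrocytes and 4 of 34 in OPCs (all features: 11.2%, 9.51% and 12.7%). The astrocyte count was 3 without OTV replicate 3. UNC5C was at 203, 206 and 186 normalised CPM in myeloid nuclei after OTV, 12.7, 19.4 and 18.9 after the ASO and 38.0 to 87.2 after saline. PLXNB1, a semaphorin receptor, was higher in all 4 types by 1.63 to 1.74. Among channel genes 11 of 36 were higher in oligodendrocytes (all features: 11.2%), among them KCNC2 (2.19) and KCNIP1 (2.52), and KCNQ1 was lower (-2.36). Of neurotransmitter receptor genes 9 of 32 were higher in OPCs and 5 of 34 in oligodendrocytes, against 12.7% and 11.2% of all features. In astrocytes 3 of 29 and in myeloid nuclei 4 of 25 were higher, against 9.51% and 9.42%, and none was lower in any type. The astrocyte count lay near the background.

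Markers of other cells were measured in the same myeloid nuclei. The 6 OPC markers summed to 202 to 284 CPM in OTV animals and 53.4 to 117 CPM in ASO animals, without overlap, though none of the 5 tested was called. The 8 neuron markers summed to 125 to 191 and 60.8 to 143 CPM, with 1 of 7 tested called lower and none higher. The 7 oligodendrocyte markers gave 1063 to 1703 and 968 to 1572 CPM, with 2 called higher and 1 lower, and the 7 astrocyte markers 691 to 1620 and 786 to 1235 CPM. No defining marker of these 4 lists was at 0 in the 6 animals. Among the gene lists of other glia, 6 of 21 myelin genes, 4 of 17 precursor genes and 6 of 19 astrocyte genes were called higher in myeloid nuclei, and 1, 1 and 0 lower (all features: 9.42% higher and 11.1% lower). Their part in the adhesion and guidance genes was not tested. Within cluster 7 alone 9 of 31 adhesion genes were called higher and the median was 2.12. In all myeloid nuclei the count fell to 3 without ASO replicate 1, to 4 without ASO replicate 2, OTV replicate 2 or OTV replicate 3, and to 10 without ASO replicate 3 or OTV replicate 1, with medians of 1.77 to 2.45.

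Each type also had its own extremes. The 3 lowest genes in oligodendrocytes by the naming rule were SLC16A8, a lactate transporter, TPD52L1 and GIPR, the receptor of an incretin hormone. GIPR stood at 0.75, 0.94 and 1.19 normalised CPM after OTV, at 49.5, 45.0 and 30.9 after the ASO and at 0.21 to 1.15 after saline, so the ASO animals alone were high (log2 fold change -5.47 ± 0.38 SE, adjusted p = 0.000175). SLC16A8 (-6.01) and TPD52L1 (-5.76) were also high in the ASO animals, at 6.85 to 62.1 and 9.23 to 43.8 normalised CPM, with saline between the groups at 2.61 to 6.28 and 1.06 to 7.32. SLC38A1, a glutamine transporter named after its values were seen, was at 425, 247 and 162 after OTV and at 12.4, 8.55 and 9.69 after the ASO (log2 fold change 4.77 ± 0.61 SE, adjusted p = 0.000879). Saline animals, at 32.1, 84.8 and 161, lay above every ASO animal and reached the level of the lowest OTV animal.

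The naming rule asks for groups that do not overlap and a level of at least 20 CPM, so a gene of lower level could have a larger difference. By it ANGPTL1, ARHGAP15 and APOE were the lowest named in OPCs. ARHGAP15, which switches off the small GTPase Rac, stood at 19.3, 13.9 and 13.7 normalised CPM after OTV, at 325, 178 and 131 after the ASO and at 16.4 to 80.0 after saline (log2 fold change -3.71 ± 0.66 SE, adjusted p = 0.00574). APOE was at 33.7, 15.3 and 5.47 in OPCs after OTV and at 200, 160 and 288 after the ASO, with saline at 86.0 to 158 (-3.41). In myeloid nuclei SCIN, an actin-severing protein, MS4A12 and CLEC2D were lowest by that rule (-6.17, -4.97 and -4.71); MS4A12 was at 1.82, 1.76 and 0 after OTV and at 32.2, 50.8 and 64.4 after the ASO, with saline at 24.6 to 41.7. The call of SCIN was lost under 9 of the alternatives. In astrocytes C18orf63, FSIP2, a protein of the sperm flagellum, and CA8 were lowest by it (-5.10, -4.36 and -4.33). C18orf63 stood at 2.42, 1.72 and 0.92 after OTV, at 63.9, 49.1 and 64.6 after the ASO and at 11.5 to 71.1 after saline, and CA8 lost its call under 8 alternatives.

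The last question was which differences depended on cell type. A joint model of the 4 types, with each animal as a block, called 1749 of 16830 features (10.4%) for an interaction of cell type and route. Of features tested in all 4 types, 79 (0.698%) were called higher in 1 type and lower in another. Among the 1332 interaction calls tested in every type, the largest absolute change lay in myeloid nuclei for 595, in astrocytes for 371, in oligodendrocytes for 234 and in OPCs for 132. Among all 11324 features the corresponding counts were 3609, 3781, 1921 and 2013. For 380 of the 595 it was higher after OTV, and among all features for 1843 of the 3609. The largest change fell in the type with the highest level of the gene for 25.3% of them, the same share as among all 11324 features. It fell in a type with less than 10% of the highest level for 26.4%, against 10.4% of all features.

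RHOJ, a small GTPase known from blood vessel cells, was called in opposite directions in 2 types. In myeloid nuclei it was at 118, 67.0 and 129 normalised CPM after OTV and at 3.54, 2.97 and 6.44 after the ASO (log2 fold change 4.62 ± 0.36 SE, adjusted p = 0.000125), with saline at 51.5 to 84.2. In oligodendrocytes it was lower, at 2.43, 2.08 and 2.38 against 8.06, 6.80 and 9.39, with saline at 5.44 to 6.99 (-1.81 ± 0.21 SE, adjusted p = 0.000484). KIAA1549 showed the reverse: in myeloid nuclei it stood at 20.0, 17.6 and 22.5 after OTV and at 103, 123 and 164 after the ASO (-2.70), and in OPCs at 243, 246 and 230 against 116, 135 and 140, with saline at 123 to 162.5 (0.88). Saline myeloid nuclei held 22.8 to 30.2 of KIAA1549, near the OTV animals. The interaction test gave an adjusted p of 4.9e-05 for RHOJ and of 0.000777 for KIAA1549, and both were called under every alternative run.

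Other genes were called in opposite directions between a pair of types. FAM13C was higher in myeloid nuclei (2.39) and lower in OPCs (-0.58) and astrocytes (-1.52). ZNF804B was higher in myeloid nuclei (3.43) and oligodendrocytes (1.62) and lower in OPCs (-0.55, a call lost under 6 alternatives). IGSF10 was higher in oligodendrocytes (3.13, lost under 6 alternatives) and lower in OPCs (-2.21) and astrocytes (-3.22). L3MBTL4, a chromatin reader of the Polycomb-related family, was higher in oligodendrocytes (2.67) and lower in astrocytes (-3.51), where it stood at 8.59, 20.7 and 45.5 normalised CPM after OTV and at 197, 120 and 540 after the ASO. Saline astrocytes spread from 53.7 to 609. Of the 6 compared animals ASO replicate 3 gave the highest L3MBTL4 value there. The astrocyte call of L3MBTL4 was lost under 9 of 12 alternatives, every left-out animal among them, with a difference of -2.67 (edgeR adjusted p = 0.12) without ASO replicate 3. Within the largest oligodendrocyte cluster the L3MBTL4 difference fell to 1.04 and was not called (edgeR adjusted p = 0.141). NOX4, FLRT2, SYTL4 and SLC8A3 were each called lower in 1 type and higher in another as well, and each lost at least 1 of these calls under some alternative.

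Other genes were called in 1 or 2 types only, with the interaction itself called. FSTL1, a secreted glycoprotein, stood in oligodendrocytes at 20.4, 13.8 and 9.96 normalised CPM after OTV and at 0.32, 0.24 and 0.71 after the ASO, with saline between at 4.65 to 7.32 (log2 fold change 5.18 ± 0.47 SE, adjusted p = 0.000204), while it differed by 0.16 to 0.84 in the other types. These were not called, and the interaction call of FSTL1 was lost after thinning to the lowest total. BCL2, which blocks apoptosis, was at 228, 180 and 79.0 in oligodendrocytes after OTV, at 20.6, 17.5 and 33.8 after the ASO and at 111 to 233 after saline. In the other 3 types its difference was -0.16 to -0.01 and was not called. ALDH1A2, which makes retinoic acid, was higher in myeloid nuclei, at 143, 86.4 and 42.4 after OTV against 4.24, 4.32 and 8.33 after the ASO and 8.92 to 73.2 after saline (4.07), a call lost without ASO replicate 1 or ASO replicate 2. SEMA3E, a repulsive guidance ligand, was higher in astrocytes, at 114, 49.1 and 197 against 6.06, 1.65 and 4.04 (4.79), with saline at 7.33 to 19.2, and in myeloid nuclei (2.67, lost under 4 alternatives), but not in oligodendrocytes or OPCs (0.72 and -0.25).

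CA10, a carbonic anhydrase-related protein, was higher in every type but the one where it is abundant. It stood at 2371, 2248 and 1950 normalised CPM in OPCs after OTV and at 1786, 2117 and 1861 after the ASO, with saline at 1698 to 1968 (0.19, not called). In oligodendrocytes, myeloid nuclei and astrocytes it was at 12.9 to 53.8 after OTV and 2.76 to 7.57 after the ASO, with saline at 2.78 to 22.65 (2.48, 2.76 and 2.56). MOBP, a myelin gene abundant in oligodendrocytes, had the same form: 0.36 and not called in oligodendrocytes, but 2.05 to 2.36 and called in each of the other types. OPALIN, a myelin gene as well, was lower in oligodendrocytes (-0.96) and not called in the other types (0.05 to 0.59), and the interaction was called for both genes.

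**Figure D5:**
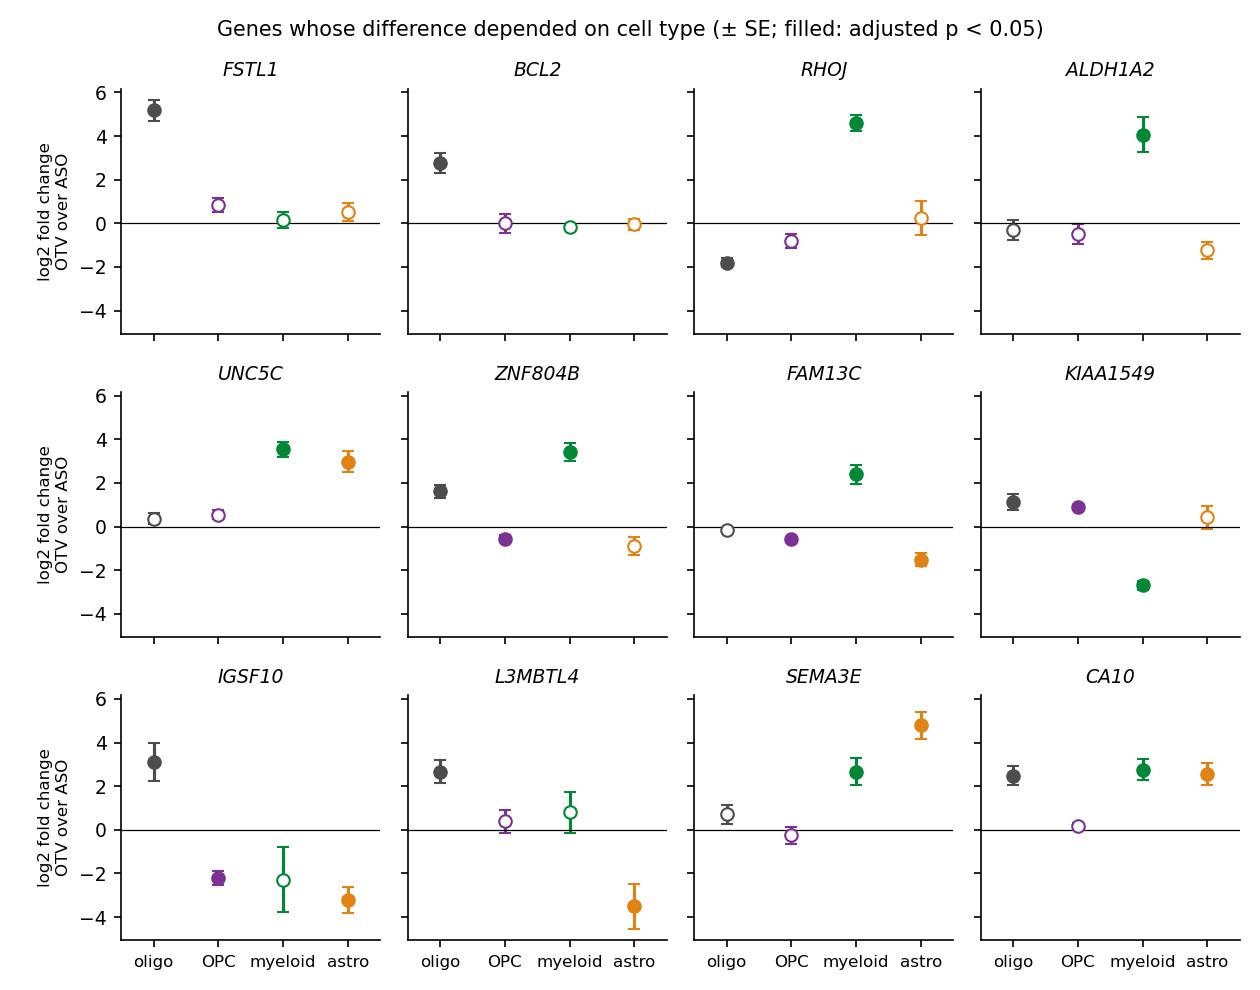
Log2 fold change, OTV over ASO, by cell type for 12 genes called in the interaction test. Bars are SE derived from the edgeR F statistic, and filled points passed an adjusted p under 0.05. FSTL1 and BCL2 stand out in oligodendrocytes, RHOJ and ALDH1A2 in myeloid nuclei and SEMA3E in astrocytes. RHOJ, KIAA1549, FAM13C, ZNF804B, IGSF10 and L3MBTL4 have filled points on both sides of 0.

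The shares of nuclei given to each cell type were not shown to differ between the routes. Oligodendrocytes made up 73.7% ± 0.66 (SD, n = 3) after OTV and 81.3% ± 7.7 (SD, n = 3) after the ASO, and the exact permutation p was 0.2. Over the 5 types compared the exact p ran from 0.2 to 0.9, and no adjusted value was below 0.667.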

How the data were processed

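Single-nucleus RNA was measured with droplet libraries from frozen thalamus. The deposited matrix holds raw UMI counts per feature and nucleus, and a deposited table gives each nucleus its animal, cluster, cell type name and doublet score; the authors called all nuclei singlets. Cell Ranger 6.1.2, Seurat 4 and the build GRCh38.p13 are named in the submitters' processing notes, without the role of the build. The total per nucleus in the table equalled the sum of the matrix.

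Here counts were summed per animal and cell type. Types with at least 20 nuclei in every animal were tested with edgeR 4.0.16 (quasi-likelihood, TMM scaling, filterByExpr, all 9 animals, OTV minus ASO, Benjamini-Hochberg), and dependence on cell type by an interaction with animal as block. A call is an adjusted p under 0.05. The SE of an edgeR log2 fold change was derived as its absolute value divided by the square root of the F statistic. Normalised CPM are TMM-scaled, while summed CPM of marker and gene lists are not. Shares were compared by exact permutation over 20 assignments of animals. The fits were tested on simulated data. Alternatives used DESeq2 1.42.0, limma 3.58.1, other filters, thinning, the largest cluster and left-out animals. Animal numbers in the labels do not pair the groups, and nothing beyond separate animals is said of the replicates.

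The members and gene lists were chosen with earlier results of these data known. Named genes followed a rule: MALAT1 and TFRC; per type the 3 largest called changes in each direction with non-overlapping groups and at least 20 CPM; the 4 leading genes in each direction shared by all types; genes with the largest range or gap between types among interaction calls; and up to 2 genes per list and direction. Other genes were named after their values were seen.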

Additional observations from a re-analysis of the deposited data

Results flagged for a closer look

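For each of the following genes the difference between OTV and ASO animals depended on cell type in the edgeR interaction test, with the adjusted p in brackets. Called higher in 1 type and lower in another were RHOJ (4.86e-05), KIAA1549 (0.000777), FAM13C (5.25e-05), ZNF804B (1.57e-05), IGSF10 (0.000231), L3MBTL4 (5.49e-05), NOX4 (0.00843), FLRT2 (0.00772), SYTL4 (0.000363), SLC8A3 (0.00434) and ROBO1 (0.00184). Genes of guidance, channels and myelin were UNC5C (0.000287), EPHA4 (0.0164), SEMA6D (0.00549), SEMA3E (1.29e-05), KCNQ1 (0.000654), KCNIP1 (0.0115), MOBP (0.00196), OPALIN (0.00255), CNDP1 (0.0342) and GPR17 (0.0125). Genes of immunity, uptake and stress were IL6 (0.000965), CYBB (0.0445), MSR1 (0.00832), SND1 (0.0405), HSPA8 (0.0459), TP53I3 (0.0409), IRGC (0.0446) and ACADS (0.0406), of which TP53I3, IL6, IRGC and ACADS were lower in all 4 types. Genes with the largest changes or gaps in a type were FSTL1 (9.22e-06), TAFA1 (0.0209), CA10 (0.000233), ALDH1A2 (0.00066), DOK5 (0.0476), GIPR (5.37e-05), SLC16A8 (0.0432), ARHGAP15 (0.0154), CA8 (0.000777), ANGPTL1 (0.000197), MS4A12 (0.0086), BCL2 (0.000703), C18orf63 (0.0283), FSIP2 (0.0228) and SLC38A1 (0.00923). Of these 44 genes 18 kept the interaction call in every alternative run, and 9 kept it in at most 5. These were CYBB (2 of 10), SND1 (2 of 11), DOK5 and TP53I3 (4 of 11 each), FSIP2 and SLC16A8 (4 of 10 each), C18orf63 (5 of 10), and ACADS and IRGC (5 of 11 each).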

How the results depend on the processing

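Of 359 called gene and type pairs checked, 247 kept call and direction in every alternative run and 112 lost the call in at least 1, among them 57 without ASO replicate 3, 41 after thinning and 40 in the largest cluster. Of 61 genes checked in the interaction test, 21 kept the call in every alternative. Thinning all animals to the lowest total gave 3131 called features in oligodendrocytes, 1519 in myeloid nuclei, 1678 in astrocytes and 583 interaction calls. The largest myeloid cluster gave 1537, and limma voom with quality weights 3545 interaction calls. Leaving out 1 animal gave 3626 to 4531 calls in oligodendrocytes, 2780 to 3824 in OPCs, 1357 (without ASO replicate 1) to 2251 in myeloid nuclei, 1597 (without OTV replicate 3) to 2893 in astrocytes and 767 (without OTV replicate 3) to 1342 interaction calls. The logit difference of the OPC share, 0.163, ranged from -0.09354 without ASO replicate 2 to 0.346 without ASO replicate 3. TFRC in myeloid nuclei, -0.15, was 0.23 after thinning and ranged from -0.37 to 0.016 with 1 animal left out. The cause of these shifts was not tested, except that thinning and leaving out an animal leave fewer counts or samples. No paired analysis was possible because the labels give no replicate numbers shared between groups. With 3 animals a group, the exact tests could not go below 0.1, and OTV replicate 3 was shallow.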
